A study of Arabidopsis thaliana with 6 samples.

Results

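The floral organ identity MADS genes are the transcription factor genes that tell each whorl of a flower which organ to make. The 10 genes described here are PI, AP3, AG, AP1, SEP1, SEP2, SEP3, SEP4, SHP1 and SHP2, chosen by locus from the 33602 loci that were counted, and every one of them has a row in every library. They were measured by RNA sequencing in aerial parts of Arabidopsis thaliana seedlings that were 11 days old. The plants studied were the snl1/2/3/4/5 quintuple mutant (snl12345, 3 libraries), in the Col-0 background, and the comparison plants were Col-0 wild type (3 libraries). Both genotypes grew in 16 h light and 8 h dark and were collected at ZT5, that is 5 h after lights on. The replicates are called biological by the submitters. The sources used here do not name the mutant alleles.

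In the textbook scheme, A-function genes such as AP1 specify sepals, the B-function pair AP3 and PI adds petal and stamen identity, and the C-function gene AG specifies stamens and carpels. The SEP proteins (E function) join the others in tetrameric complexes, and SHP1 and SHP2, close relatives of AG, act in ovules and in the opening zone of the fruit. AP3 and PI work as an obligate heterodimer, and once a flower has started the pair maintains its own transcription. In leaves and seedlings the genes are held off by Polycomb group proteins, which place or bind methylation on histone H3, and by co-repressors that bring in histone deacetylases. The SIN3-LIKE (SNL) proteins resemble yeast Sin3, on which such a deacetylase complex assembles. The mutant therefore asks what happens to silent genes when most of the SNL genes are mutated. The series title places this in the control of the floral transition by day length.

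Library totals lay between 12622416 and 15774357 counts in snl12345 and between 13064598 and 15194748 in Col-0. In snl12345 each of SNL1 to SNL5 had less transcript, with log2 fold changes between −4.57 (SNL2) and −0.92 (SNL5), each at an adjusted p of 0.000213 or less (edgeR quasi-likelihood test), while SNL6, the remaining family member, had 36.7 ± 2.94 CPM in snl12345 and 35.7 ± 2.22 CPM in Col-0 (adjusted p = 0.753). CPM is the read count scaled by library size, and ± is the SD over 3 libraries unless it is called SE. Mutant replicate 3 kept more SNL2, SNL3 and SNL4 transcript than the other mutant libraries, for SNL2 7.72% of the Col-0 mean, where replicates 1 and 2 kept 2.37% and 2.7%. None of the 6 leaf markers passed the test. All 7 root markers had reads in every library of these aerial samples, with a summed level of 137 to 155 CPM in snl12345 and 93.6 to 120 CPM in Col-0, and most of that sum was TIP2;3, a vacuolar water channel gene, with 77.9 to 101 CPM in snl12345 and 42.7 to 62.5 CPM in Col-0. TIP2;3 rose (log2 fold change 0.73 ± 0.15 SE, adjusted p = 0.00636), and the other 6 root markers did not pass the test, among them the root hair gene RHD6, whose mutant libraries were all below the wild-type ones (log2 fold change −0.54). The part of root tissue in the values below was not tested.

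PI (PISTILLATA, AT5G20240, chromosome 5) rose, alone among the 3 members that passed the filter on low counts. It had 160, 243 and 325 reads in snl12345 replicates 1 to 3, against 33, 38 and 48 reads in Col-0 replicates 1 to 3. Scaled for depth these were 12.4, 15.3 and 24.8 CPM in snl12345 and 2.18, 2.56 and 3.64 CPM in Col-0, so the lowest mutant library stood above the highest wild-type library by a wide margin. The means were 17.5 ± 6.52 CPM in snl12345 and 2.79 ± 0.756 CPM in Col-0, a 6.29-fold difference (log2 fold change 2.65 ± 0.30 SE, adjusted p = 0.000667, edgeR quasi-likelihood test). In the authors' deposited table of higher genes PI is the only one of the 10 members listed, with a log2 fold change of 2.64 and an adjusted p of 2.4e-20. That table lists 695 genes, against 3587 called higher here, so its adjusted p and its omissions follow other criteria than the test used here. By size of log2 fold change PI ranked 51 among the 19591 genes tested, and the median fold of the 3587 genes called higher was 1.51. The spread among mutant libraries was large, and the highest PI level was in replicate 3, the library that kept the most SNL2 transcript. In Col-0, too, replicate 3 had the highest PI level, and a link to SNL2 transcript was not tested. Without mutant replicate 3 the log2 fold change was 2.32 (adjusted p = 0.000302). Over all 13 alternatives it ran from 2.32 to 2.88 with an adjusted p between 2.21e-17 and 0.00638. Because whole aerial parts were sequenced, a few cells with much PI RNA and many cells with little cannot be told apart.

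The genes on either side of PI moved the other way. BCB, which encodes a blue copper-binding protein and lies next to PI on the same strand, averaged 49.2 ± 26.6 CPM in snl12345 and 120 ± 21.1 CPM in Col-0 (log2 fold change −1.29 ± 0.32 SE, adjusted p = 0.015, edgeR). DIN10, named for its induction in the dark and lying on the other side, averaged 1490 ± 369 CPM in snl12345 and 2617 ± 59.7 CPM in Col-0 (log2 fold change −0.81 ± 0.17 SE, adjusted p = 0.00757). For both neighbours the mutant libraries all lay under the wild-type ones, as they did for 24.6% of the genes tested. No annotated gene overlaps PI, and no near-identical copy of it was found. Among exonic alignments of at least 100 bases, the highest identity was to a stretch of SOC1, at 76.6% of 124 aligned bases.

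**Figure D1:**
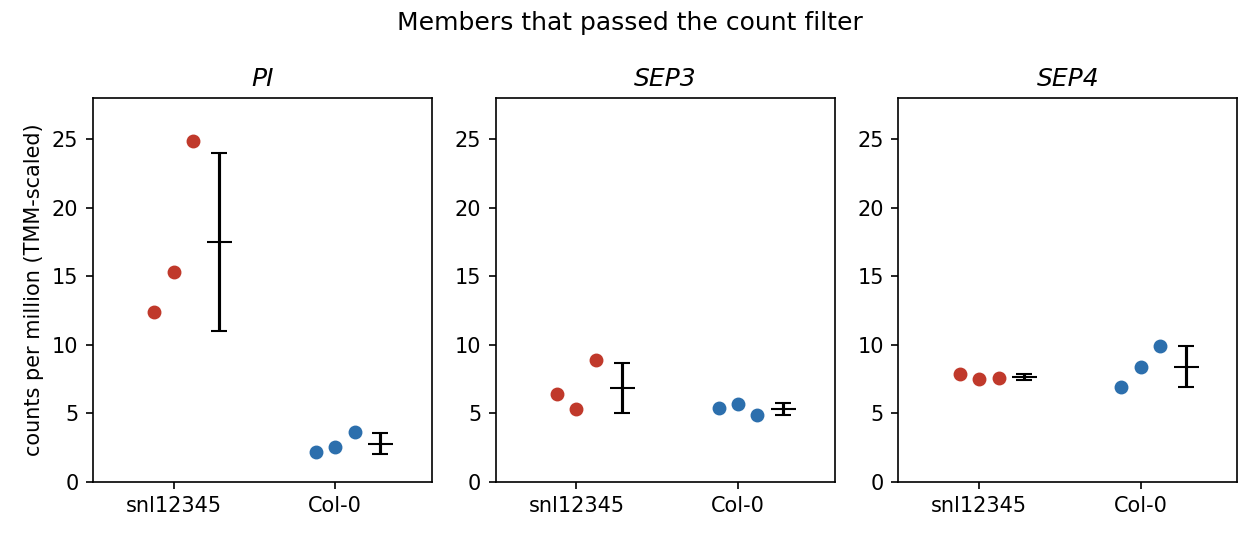
CPM of PI, SEP3 and SEP4 in each library (points), with the mean and SD of the 3 libraries beside them, for snl12345 and Col-0. The 3 mutant points of PI lie between 12.4 and 24.8 CPM, above the wild-type points at 2.18 to 3.64 CPM, whereas the points of the genotypes overlap for SEP3 and SEP4.

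SEP3 and SEP4, the other members with enough reads for the test, did not pass it. SEP3 (AT1G24260, chromosome 1), the SEP protein with the broadest set of partners, had 83, 84 and 116 reads in snl12345 and 82, 84 and 64 reads in Col-0. Its level was 6.86 ± 1.83 CPM in snl12345 and 5.31 ± 0.415 CPM in Col-0 (log2 fold change 0.36 ± 0.20 SE, adjusted p = 0.19, edgeR), and the mutant range, pulled up by replicate 3, overlapped the wild-type range. Without mutant replicate 3 the log2 fold change of SEP3 was 0.13. SEP3 is a close neighbour of a mutated gene, with 8 counted loci between it and SNL3 in the RefSeq annotation, and AT1G24265, the next counted locus on the far side of SEP3, averaged 3.98 CPM in snl12345 and 4.27 CPM in Col-0 (adjusted p = 0.658).

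SEP4 (AT2G03710, chromosome 2), which of the SEP genes is known for a wider expression outside the flower, had 102, 119 and 99 reads in snl12345 and 105, 124 and 131 reads in Col-0. The mutant libraries were almost equal at 7.65 ± 0.212 CPM, and the wild-type libraries, at 8.41 ± 1.5 CPM, enclosed them (log2 fold change −0.13 ± 0.15 SE, adjusted p = 0.505). Of the 3 members that passed the filter on low counts, therefore, 1 was called higher, 0 were called lower and 2 missed the threshold. Over all 19591 genes tested, 18.3% were called higher and 16.5% lower, so 1 of 3 says little about the group as such. No member had an unadjusted p below 0.05 in the downward direction, and limma-voom and DESeq2 also called 1 higher and 0 lower. Leaving out Col-0 replicate 1 reduced the genes called over the whole table to 2290 higher and 1757 lower, and leaving out snl12345 replicate 2 reduced those called lower to 1894.

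The other 7 members stayed below the filter in both genotypes, and their values are best read as reads per library. Together they had 42, 29 and 31 reads in snl12345 replicates 1 to 3, against 7, 12 and 7 reads in Col-0. Every one of the 7 had more summed reads in the mutant. Ratios below divide the summed reads of the genotypes, each taken per total count, and carry an exact 95% Clopper-Pearson interval that covers counting error only. For single genes, the exact 2-sided permutation test on 3 against 3 libraries cannot give a p below 0.1.

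AP3 (AT3G54340, chromosome 3), the partner without which PI protein does not enter the nucleus or bind DNA, had 11, 6 and 10 reads in snl12345 and 2, 2 and 1 reads in Col-0. All mutant libraries were above all wild-type libraries, with a ratio of 5.55 (interval 2.11 to 18.5, exact permutation p = 0.1). The ratio is close to that of PI, but the levels were far apart. Per kb of exon, PI exceeded AP3 by 13.5-, 37.7- and 30.2-fold in the mutant libraries and by 15.3-, 17.7- and 44.7-fold in the wild-type libraries, with AP3 resting on a handful of reads in each. In an edgeR fit of all 25100 genes with reads, without a filter on low counts, AP3 passed the threshold with an adjusted p of 0.0128 (log2 fold change 2.39 ± 0.59 SE).

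The C-function gene AG (AT4G18960, chromosome 4) had 3, 4 and 7 reads in snl12345 and 0, 3 and 1 reads in Col-0. Its ratio was 3.6 (interval 1.13 to 15), and the lowest mutant library, at 0.232 CPM, was only just above the highest wild-type library, at 0.202 CPM. The log2 fold change of AG in the fit without a filter was 1.75, and leaving out 1 library gave 1.18 to 2.95, the highest without Col-0 replicate 2. SHP1 (AT3G58780, chromosome 3) had 13, 8 and 8 reads in snl12345 and 4, 6 and 4 reads in Col-0, a ratio of 2.13 (interval 1.09 to 4.36). SHP2 (AT2G42830, chromosome 2) had 1, 3 and 2 reads in snl12345 and 0 in every Col-0 library. With the Col-0 sum set to a floor of 3 reads its ratio was 2.06, with no interval for the error in the mutant reads. The exact permutation p was 0.1 for each of these 3 genes, and in the fit without a filter none of them passed (adjusted p = 0.15 for AG, 0.111 for SHP1 and 0.0702 for SHP2). SHP1 overlaps the antisense gene GAUT15, and SHP2 overlaps AT2G42835. If the counting, whose strand setting is unknown here, ignored strand, SHP1 counts could depend on how reads of the shared stretch were assigned. GAUT15, a gene for a galacturonosyltransferase-like protein, had 7.11 ± 0.908 CPM in snl12345 and 7.25 ± 0.761 CPM in Col-0 (adjusted p = 0.863), and AT2G42835 had 0 reads in every library.

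Of the low E-function genes, SEP1 (AT5G15800, chromosome 5) had 13, 6 and 3 reads in snl12345 and 1 read in each Col-0 library. The ratio was 7.54 with a wide interval of 2.27 to 39.4, the mutant libraries spread more than 4-fold in CPM (1.01, 0.378 and 0.229), and the permutation p was 0.1. SEP1 passed the fit without a filter (log2 fold change 2.77, adjusted p = 0.0269) but lost the call without mutant replicate 1 (log2 fold change 2.03, adjusted p = 0.11) or 2 (0.0626) or any Col-0 replicate (0.0728 to 0.0887). Its antisense neighbour AT5G15790 overlaps it and rose as well, with 11.8 ± 0.808 CPM in snl12345 and 8.90 ± 1.09 CPM in Col-0 (log2 fold change 0.41 ± 0.12 SE, adjusted p = 0.028), and the part of its reads in the SEP1 counts was not tested. SEP2 (AT3G02310, chromosome 3) had 0, 2 and 1 reads in snl12345 and 0 in Col-0. The A-function gene AP1 (AT1G69120, chromosome 1), which marks the floral meristem as soon as it forms, had a single read, in mutant replicate 1, and 0 in Col-0, a count that allows up to 0.0695 CPM in Col-0. No fold is given for SEP2 or AP1, because both genotypes were at or under the floor of 3 reads.

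**Figure D2:**
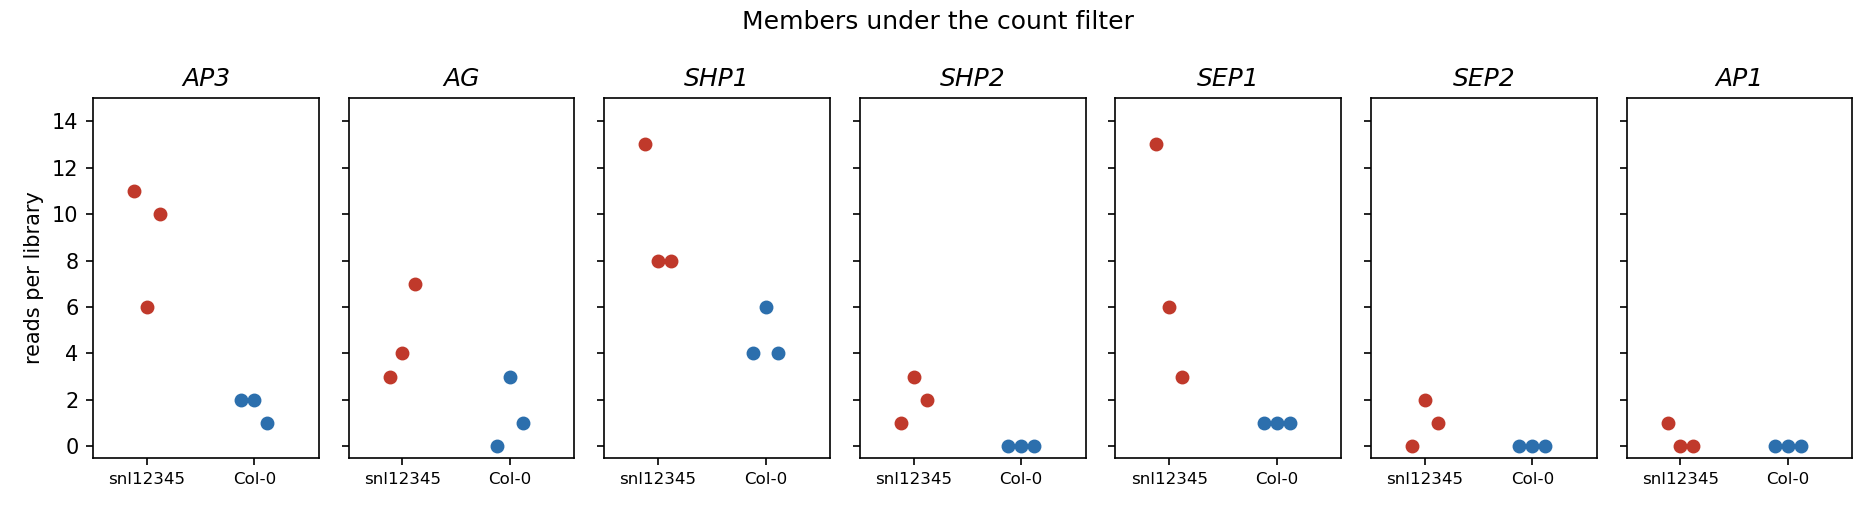
Reads per library (points, 1 for each library, with no scaling for depth) of the 7 members under the filter, in snl12345 and Col-0. AP3 and SEP1 reach 11 and 13 reads in the mutant, against at most 2 and 1 in Col-0, while SEP2 and AP1 stay at 0 to 2 reads everywhere.

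Counted over all 10 members, the libraries of the genotypes did not overlap in 6 (PI, AP3, AG, SHP1, SHP2 and SEP1), each time with snl12345 higher, and overlapped in the other 4. Of the 25100 genes with reads, 21.7% had every mutant library above every wild-type library. Among the 5509 of these genes that were under the filter the share was 9.04%, against 5 of the 7 low members. Without the filter, 3 of 10 members were called higher (PI, AP3 and SEP1) and 0 lower, against 14.1% and 13.4% of all genes in that fit. Of the genes under the filter, 2.34% were called higher in it, against 2 of the 7 low members. For both shares the genes under the filter were not matched to the low members by read number. They include genes with 1 summed read, too few to separate the libraries.

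The order of the members by level per kb of exon differed between the genotypes. In snl12345 PI led with 13.4 ± 5.00 CPM per kb, followed by SEP3 (5.39 ± 1.44) and SEP4 (5.25 ± 0.145), whose ranges overlapped. In Col-0 SEP4 led with 5.77 ± 1.03 CPM per kb, then SEP3 (4.18 ± 0.326) and PI (2.14 ± 0.580), with ranges that did not overlap. PI was thus above SEP3 in each mutant library and below it in each wild-type library (1.88, 2.82 and 2.73 times the SEP3 level in snl12345, and 0.392, 0.441 and 0.730 times in Col-0). The next member was far lower in both genotypes, AP3 at 0.547 ± 0.208 CPM per kb in snl12345 and SHP1 at 0.127 ± 0.0283 CPM per kb in Col-0. From AP3 down, the range of each mutant member overlapped that of the next. PI made up 41.3%, 51.2% and 56.9% of all member reads in the mutant libraries and 14.5%, 14.7% and 19.2% in the wild-type libraries.

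**Figure D3:**
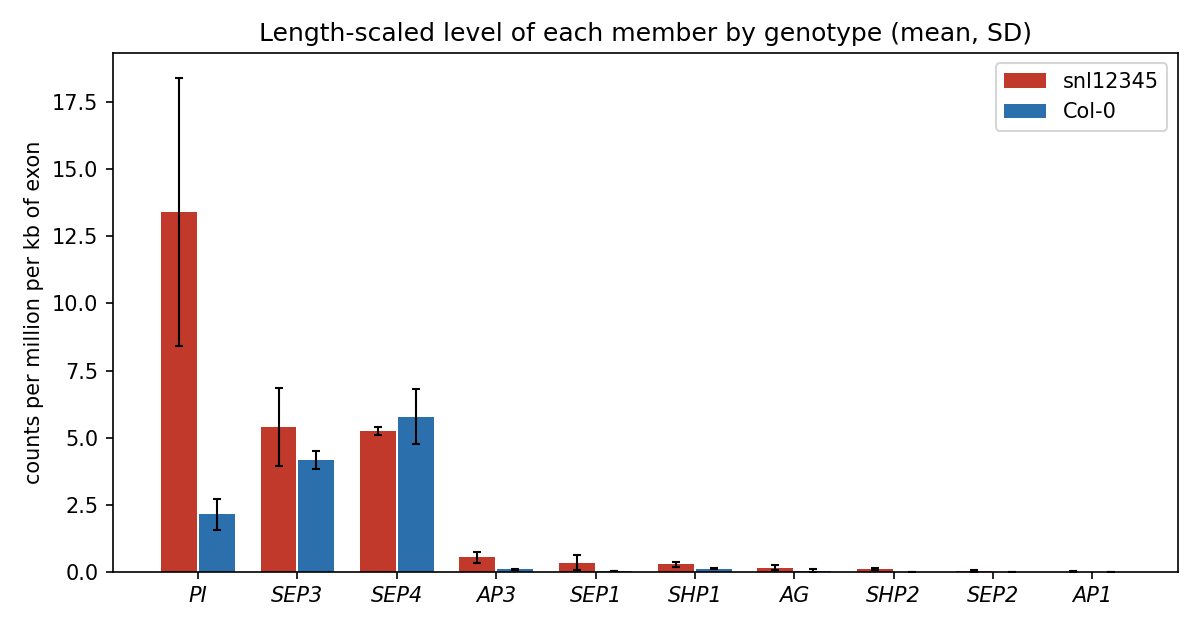
Level of each member per kb of exon (bars, mean of 3 libraries; error bars, SD) in snl12345 and Col-0. PI is the tallest bar in snl12345 at 13.4 CPM per kb and the third in Col-0 at 2.14 CPM per kb, and 7 members stay under 1 CPM per kb in both genotypes.

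The genes that switch the members on at the start of a flower gave calls in both directions. Of 23 such activators and meristem identity genes, 13 were tested, of which 2 were called higher and 1 lower, against 18.3% and 16.5% of all tested genes. The list had a median log2 fold change of −0.08, against 0.00 over all tested genes. In the fit without a filter, 4 of the 23 were called higher and 1 lower, against 14.1% and 13.4% of all genes in it. ULT1, chosen after its values were seen, was called higher only in that fit (adjusted p = 0.0497, and 0.0571 with the filter). LFY, the meristem identity factor that directly activates AP1, AP3 and AG, had 3, 5 and 2 reads in snl12345 and 4, 4 and 1 in Col-0. UFO, the F-box partner through which LFY switches on the B genes, was chosen after its values were seen and had 3, 8 and 10 reads in snl12345 and 2, 4 and 1 in Col-0, with overlapping libraries (no-filter adjusted p = 0.0991). The gene of the mobile flowering signal FT, chosen after its values were seen, had 4, 13 and 5 reads in snl12345 and 1, 0 and 0 in Col-0 (no-filter adjusted p = 0.01). The AP1 relatives CAL and FUL had 0, 0 and 0 and 2, 3 and 1 reads in snl12345, against 0, 0 and 2 and 4, 4 and 4 reads in Col-0. The MADS gene AGL24 rose to 13.3 ± 1.95 CPM in snl12345, against 4.82 ± 0.289 CPM in Col-0, and SOC1 fell to 8.02 ± 3.44 CPM, against 31.5 ± 2.15 CPM. AGL24 and SOC1 are known both to promote the floral transition and to hold SEP3 down in very young flower buds. PUCHI, an AP2-family gene of the floral meristem, was called higher at 1.15 ± 0.0137 CPM in snl12345 and 0.583 ± 0.0859 CPM in Col-0 (adjusted p = 0.0245). It had 15, 18 and 15 reads in snl12345 and 8, 8 and 9 in Col-0, and passed the filter only through its snl12345 reads. Its call was lost in 6 of 13 alternatives, among them leaving out mutant replicate 1 (adjusted p = 0.0519) or 2 (0.068) or Col-0 replicate 1 (0.0946) or 2 (0.078), with a range of 0.0231 to 0.15 over all of them.

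Among genes known to keep the members off outside the flower or outside their whorl, the calls were of small size and all but 1 of them were downward. Of 21 such repressors 17 were tested, of which 1 rose, 5 fell and 11 did not pass, against 18.3% and 16.5% of all tested genes. The list had a median log2 fold change of −0.07. LHP1, which binds the Polycomb mark and whose loss turns on AG, AP3, PI and SEP3 in leaves, fell to 16.7 ± 1.51 CPM in snl12345, against 24.8 ± 1.94 CPM in Col-0 (log2 fold change −0.56 ± 0.10 SE, adjusted p = 0.00391). EMF1, a plant-specific Polycomb factor whose mutants make floral organs straight from the seedling, fell to 34.8 ± 1.29 CPM in snl12345, against 43.9 ± 1.4 CPM in Col-0 (adjusted p = 0.00784). Both calls held in all 13 alternatives.

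SEU, a co-repressor of AG that works with LUG, fell to 63.9 ± 2.01 CPM in snl12345, against 76.7 ± 2.05 CPM in Col-0 (adjusted p = 0.014), and the Polycomb ubiquitin ligase gene RING1A fell to 6.27 ± 0.732 CPM, against 8.65 ± 0.763 CPM in Col-0 (adjusted p = 0.0282). The SEU call was lost without mutant replicate 2 (0.0522) or Col-0 replicate 1 (0.0693), and the RING1A call without mutant replicate 2 or 3 or Col-0 replicate 1 or 3 (0.0553 to 0.118). The histone methyltransferase gene CLF (log2 fold change −0.35 ± 0.12 SE, adjusted p = 0.0445) and VRN1 (0.28 ± 0.09 SE, adjusted p = 0.0406), chosen after their values were seen, completed the calls. The CLF call was lost without mutant replicate 2 or any Col-0 replicate (0.0667 to 0.13). The VRN1 call was lost without mutant replicate 1 or 2 or any Col-0 replicate (0.0707 to 0.128). AP2, the classic whorl repressor of AG, had 20.0 ± 1.07 CPM in snl12345 and 18.1 ± 1.57 CPM in Col-0 (adjusted p = 0.254).

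**Figure D4:**
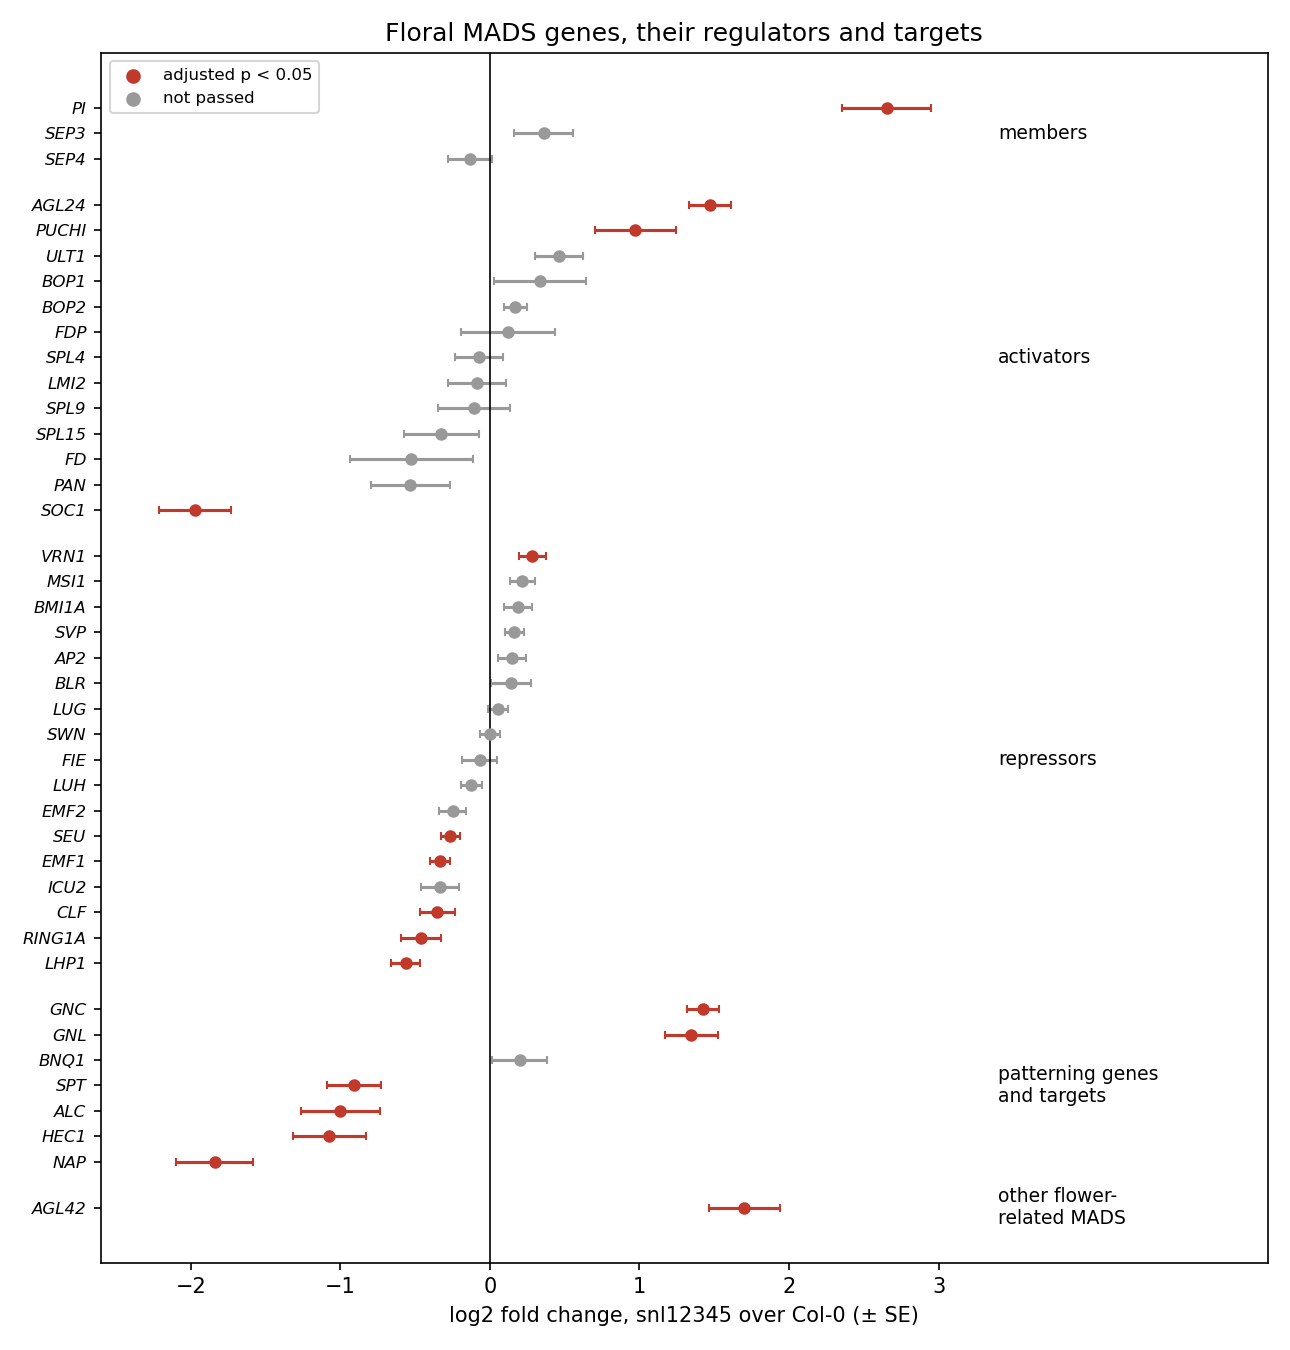
Log2 fold change of snl12345 over Col-0 (points; bars, SE) for the tested members, activators, repressors, patterning genes and targets, and other flower-related MADS genes, coloured by whether the adjusted p was below 0.05. PI lies at 2.65, SOC1 at −1.97 and NAP at −1.84, while all tested repressors lie between −0.56 and 0.28.

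Among genes that act with or after the members, some are known as direct targets of AP3 and PI in flowers. NAP, a NAC-family gene named for its activation by AP3 and PI and better known in leaf senescence, fell to 18.7, 16.3 and 15.7 CPM in snl12345, against 59.7, 37.7 and 84.3 CPM in Col-0 (log2 fold change −1.84 ± 0.26 SE, adjusted p = 0.00155, edgeR). GNC and GNL, a pair of GATA-factor genes of greening that AP3 and PI repress in petals, rose to 105 ± 15.7 and 32.5 ± 8.36 CPM in snl12345, against 39.1 ± 1.31 and 12.8 ± 1.43 CPM in Col-0 (adjusted p = 0.000198 and 0.00126). In these seedlings these 3 genes, named because they were called, changed in the direction opposite to the one known from flowers with active AP3 and PI. BNQ1 of the same list, chosen after its values were seen, did not pass. It had 8.28 ± 2.17 CPM in snl12345 and 7.21 ± 0.14 CPM in Col-0 (log2 fold change 0.20, adjusted p = 0.426, edgeR). SPT, a bHLH gene of carpel margin growth, fell to 4.14 ± 0.603 CPM in snl12345, against 7.78 ± 1.44 CPM in Col-0 (adjusted p = 0.00633). The bHLH genes HEC1 and ALC, which act in the stigma and in fruit opening and were chosen after their values were seen, fell as well, with log2 fold changes of −1.08 ± 0.24 SE for HEC1 and −1.0 ± 0.26 SE for ALC. The HEC1 call was lost without Col-0 replicate 1 (adjusted p = 0.0528), and the ALC call without mutant replicate 2 (0.0508) or Col-0 replicate 1 (0.0616) or 2 (0.0543). Of the 14 genes of this list 7 were tested, of which 2 rose, 4 fell and 1 did not pass, with a median log2 fold change of −0.91. Over all tested genes, 18.3% were called higher and 16.5% lower. The carpel and stamen genes CRC, SPL (also called NZZ), KNU and IND had 0 reads in every library.

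Other flower-related MADS genes were mostly as silent as the low members. Of 9, AGL42 was the one tested, and it rose to 6.90 ± 1.61 CPM in snl12345, against 2.13 ± 0.463 CPM in Col-0 (log2 fold change 1.70 ± 0.24 SE, adjusted p = 0.0015). AGL42 is a SOC1 relative that promotes flowering and is also active in roots. AGL6, the closest relative of the SEP genes, had 1 read in each mutant library and 2, 0 and 0 reads in Col-0.

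Anther and pollen markers were examined beside PI. Of 11 anther, tapetum and pollen markers, 5 had 0 reads in all 6 libraries (DYT1, LTP12, GRP16, VGD1 and SHT), and none of the 3 that were tested passed. The summed level of the list was 51.1 to 66.9 CPM in snl12345 and 57.5 to 64.0 CPM in Col-0, nearly all of it from TPD1 and TUA1. GRP19, MS2 and AMS were chosen after their values were seen. GRP19, a gene for a pollen coat oleosin, had 4, 11 and 8 reads in snl12345 and 0 in every Col-0 library (no-filter adjusted p = 0.00536). The tapetum gene MS2 had 4, 4 and 1 reads in snl12345 and 0, 1 and 0 in Col-0 (no-filter adjusted p = 0.0894). AMS went the other way, with 5, 4 and 7 reads in snl12345 and 12, 11 and 11 in Col-0. AMS passed the filter only through its Col-0 reads. It was tested and its libraries did not overlap (log2 fold change −1.02, adjusted p = 0.0565, edgeR quasi-likelihood test).

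By the root mean square distance between log2 CPM profiles over the 6 libraries, each gene centred on its own mean, the tested genes most like PI were AT1G36675 (distance 0.311 on the log2 scale), the expansin gene EXPA17 (0.342) and the trehalose-phosphate phosphatase gene TPPJ (0.353). TPPJ averaged 8.64 ± 1.33 CPM in snl12345 and 1.88 ± 0.551 CPM in Col-0. AT1G36675 averaged 2.21 ± 0.303 CPM in snl12345 and 0.232 ± 0.0358 CPM in Col-0. For EXPA17 the levels were 1.97 ± 1.15 CPM in snl12345 and 0.184 ± 0.0281 CPM in Col-0. AT1G36675 and EXPA17 thus had few reads in Col-0 and passed the filter only through their snl12345 reads. For SEP4, the member with the next highest mean level, the most similar profiles were those of AT1G27420 (0.0258), the nucleotide-sugar transporter gene GONST1 (0.0578) and AT1G74456 (0.0581), none of which passed the test.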

How the data were processed

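For each of the 6 libraries the authors deposited a raw read count for each of 33602 loci, with no normalization. RNA libraries were made from total RNA with a kit that keeps strand, per the labels' protocols. The submitters' processing notes name the TAIR10 genome and the tools cutadapt (version 1.4), TopHat, HTSeq and edgeR. What each tool did, its version and whether counting used strand are otherwise not given in the sources used here. Result tables deposited by the authors list 695 higher and 480 lower genes, and from them the log2 fold change and the adjusted p-value were read, and 12 columns of per-sample values in each were not used.

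Genes were kept with filterByExpr (minimum count 10, minimum total 15), which left 19591. They were scaled with TMM factors (0.966 to 1.02) and tested with edgeR 4.0.16 (glmQLFit and glmQLFTest, with a term for genotype) under R 4.3.3. Benjamini-Hochberg adjustment ran over all tested genes with a threshold of 0.05. The fit was tested on simulated counts. The SE is the log2 fold change divided by the square root of F. Replicate pairs differed by more than counting noise (chi-square per degree of freedom 3.69 to 14.3). The labels mention no molecular identifiers, so reads need not be separate molecules, and counting intervals and floors cover counting error only. Alternatives used DESeq2 1.42.0 and limma 3.58.1. Symbols, chromosomes, exonic lengths, neighbours and overlaps were taken from RefSeq (TAIR10.1), where 32835 loci matched. Since the notes name TAIR10, no coordinates or sequences are printed. Near-identical copies (95% over 100 bases of exon) were searched with BLAST+ 2.17.0, which found for SEP1, SHP1 and SHP2 the overlapping gene and for the other members none.

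The members, the 8 other gene lists and the tests were chosen with earlier results of these data known. 1 list gene was left out because the annotation does not pair its symbol with the locus. Named were all members, the SNL genes, LFY, CAL, FUL, AP2, AGL6 and SOC1, up to 4 called genes of each list by adjusted p, and the 3 closest profiles of the 2 members with the highest mean CPM. Genes named outside this rule were chosen after their values were seen, or are counted neighbours or overlapping genes of members.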

Additional observations from a re-analysis of the deposited data

How the results depend on the processing

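The PI call held in all 13 alternatives, and SEP3 and SEP4 stayed above the threshold in all 13, SEP3 with log2 fold changes of 0.13 to 0.52 and SEP4 of −0.25 to 0.00. The count of members called higher was 1, and 3 without a filter on low counts, where 7 more members enter. Leaving out 1 library gave 1 to 2, with 2 without snl12345 replicate 2 or any Col-0 replicate, where AP3 entered the test through its reads in snl12345, and in the fit without a filter (added after the data were seen) 2 to 3. Over the whole table, leaving out 1 library gave 2290 to 3806 genes higher and 1757 to 3511 lower. With a replicate block there were 3106 higher and 2767 lower genes and the PI log2 fold change was 2.63; in the fit without a filter the block kept AP3 (adjusted p = 0.0337) and SEP1 (0.0384). It ended the calls of PUCHI (0.0608) and CLF (0.0823) and no other call of a member or of a list gene that was followed. For samples with the same number, the deviations from the group means correlated at 0.0136, 0.148 and −0.0561. Not every sample correlated best with its own number. Whether samples with the same number shared a batch was not tested. DESeq2 as the test ended the calls of PUCHI (0.15), RING1A (0.0627), CLF (0.062) and VRN1 (0.0726), and VRN1 was also lost with library totals alone (0.0579) and without a filter (0.0525); the cause was not tested. At a few reads per library, the counting intervals of the ratios of the members under the filter are wide.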

Other observations

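Beside the genes next to PI and the one overlapping SEP1, 1 other counted neighbour of a member passed the test. emb1967, next to AP3 on the same strand, fell to 39.0 CPM in snl12345, against 50.3 CPM in Col-0 (log2 fold change −0.37 ± 0.07 SE, adjusted p = 0.00577, edgeR quasi-likelihood test), whereas WRI1, an oil synthesis regulator on the other side of AP3, had 13.2 CPM in snl12345 and 12.3 CPM in Col-0 (adjusted p = 0.459). Both neighbours of AP1 and 1 neighbour each of SEP2, SEP3, SEP4 and SHP2 had 0 reads in every library. HVA22F beside SHP2 had 4.04 CPM in snl12345 and 3.29 CPM in Col-0 (adjusted p = 0.358).

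TFL1 and AGL13, chosen after their values were seen, had few reads. TFL1, which keeps the shoot tip from becoming a flower, had 11, 9 and 4 reads in snl12345 and 5, 0 and 3 reads in Col-0 (adjusted p = 0.133, edgeR with no filter on low counts). AGL13, a sister gene of AGL6, had 4, 5 and 2 reads in snl12345 and 0, 2 and 1 reads in Col-0 (adjusted p = 0.152, likewise).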
